A study of Mus musculus with 3 samples.

Results

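The genes described here carry glucose carbon from uptake to lactate, to the mitochondrial pyruvate dehydrogenase complex or into the pentose phosphate pathway. They were taken by symbol from a list of 39 genes, and all 39 were found among the 50600 genes of each deposited table. RNA was measured in T-helper 1 (Th1) cells, CD4 T cells known for the transcription factor Tbx21 and the cytokine Ifng, taken as primary cells of the mouse strain C57BL/6NJ. The 3 libraries form 1 group of 3 biological replicates, which have their own biosample records but 1 donor record in common, and the age and sex of the mice are not given. No treatment or genotype is named, the labels point to a protocol for differentiating CD4 T cells, and the file headers carry a 16 hr tag. With 1 group, genes were compared with each other within each library, and tests measure only the spread between these samples, which may be technical.

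The libraries held 4764598, 2568928 and 2815439 counts in replicates 1, 2 and 3. A level of 1 TPM (a count scaled for gene length and for the total of its library) stood for 2.25, 1.28 and 1.59 counts per kilobase. All 7 T cell markers were at 1 TPM or more in every library. Of 4 Th1 markers only Il12rb2 was, and its exons are overlapped on the other strand, while Tbx21 had 2, 10 and 2 counts, Ifng 1, 0 and 0, and Cxcr3 0, 0 and 1, so the Th1 label is not borne by its defining genes in these tables. Cd8a, Ms4a1, Lyz2 and all 4 neutrophil markers had 0 counts, while the B cell marker Cd79a had 27, 0 and 17. Of the other lists for CD8, B, myeloid, NK and red cells, Cd8b1, Csf1r, Cd68 and Alas2 were at 1 TPM or more in every library, Csf1r and Alas2 with overlapped exons. Csf1r was at 121, 112 and 137 TPM and Cd8b1 at 29.0, 7.93 and 15.3 TPM. The part of such genes in the levels given here was not tested. Genes whose exons overlap exons of the other strand held 56.1%, 60.3% and 71.6% of all counts in replicates 1, 2 and 3. The counts were made with strand setting 1, the library kit is not given in the sources used here, and whether that setting matched the libraries was not tested. A level given here is therefore the level of reads assigned to the annotated strand of a gene.

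Glycolysis splits glucose into pyruvate in the cytosol and yields ATP and NADH. Activated T cells are known to raise it and to reduce much of the pyruvate to lactate, which regenerates NAD+. The pentose phosphate pathway branches off at glucose 6-phosphate and supplies NADPH and ribose for nucleotides, and pyruvate dehydrogenase commits pyruvate to the mitochondria as acetyl-CoA. Many steps have isoenzymes, encoded by separate genes that are used to different degrees in liver, muscle, brain and lymphocytes.

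Because the isoenzyme comparisons need reads that can be told apart, the first coding bases of the lactate dehydrogenase and enolase genes are shown, 5′ to 3′, from GENCODE vM21 transcripts. Capitals mark the bases that differ from Ldha in the first pair, and from Eno1 in the enolases.
Ldha: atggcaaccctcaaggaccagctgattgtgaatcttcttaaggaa
Ldhb: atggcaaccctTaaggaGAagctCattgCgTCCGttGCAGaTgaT
Eno1: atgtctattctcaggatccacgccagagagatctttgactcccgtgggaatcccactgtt
Eno1b: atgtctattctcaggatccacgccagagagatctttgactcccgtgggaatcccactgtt
Eno2: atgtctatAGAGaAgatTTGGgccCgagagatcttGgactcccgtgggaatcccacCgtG
Eno3: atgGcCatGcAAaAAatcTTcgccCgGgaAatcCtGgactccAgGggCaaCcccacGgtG
Ldhb differed from Ldha at 15 of these 45 bases, and Eno2 and Eno3 differed from Eno1 at 13 and 20 of 60. Eno1b, a near-identical copy of Eno1, differed at 0 of the 60 and at 8 of its 1305 coding bases. Identity was computed over the aligned bases of the coding sequences, with gaps left out. It was 58.2% (Slc16a1 and Slc16a3) to 77.8% (Eno2 and Eno3) over the 15 isoenzyme pairs, and no pair shared a run of 50 bases.

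Of the 39 genes, 34 were detected, meaning at 1 TPM or more in every library, against 39.8% of 21764 protein-coding genes. Hk3, Pfkfb4 and Aldoc were under 1 TPM in every library, as were 51.1% of coding genes, and Pgam2 and Eno2 were on either side of 1 TPM. The median level was 28.1 TPM, or 4.86 on the log2(TPM + 1) scale, where the median of all coding genes was 0.412. By role, the median was 10.6 TPM for the 2 glucose transporters, 44.6 for 18 glycolytic enzymes, 57.7 for 5 genes of lactate formation and export, 38.8 for 4 of pyruvate entry, 25.6 for 7 of the pentose phosphate pathway and 10.1 for 3 regulators. The 5 highest genes by mean TPM were Ldha, Pkm, Gapdh, Tpi1 and Aldoa, an order that depends on the gene lengths used.

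**Figure D1:**
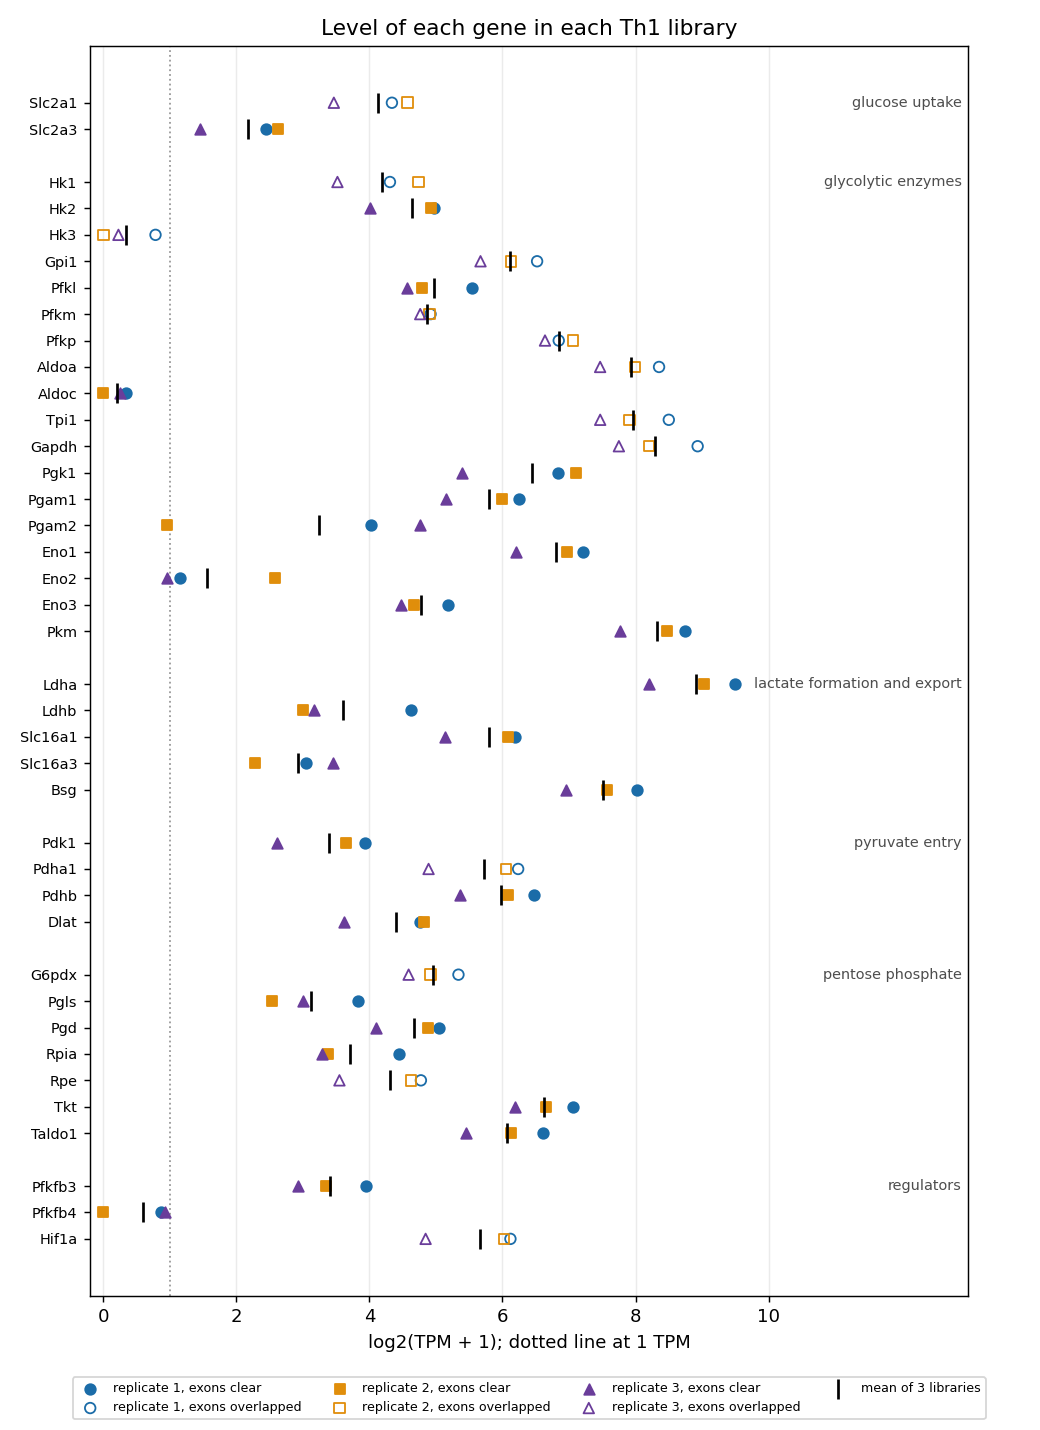
Level of each of the 39 genes in each library as log2(TPM + 1), ordered by role, with a short bar at the mean of 3 libraries. Open symbols are genes whose exons overlap exons of the other strand, and the dotted line marks 1 TPM. Hk3, Pfkfb4 and Aldoc lie left of the line in every library, and the replicate 3 triangle is the leftmost symbol for most genes.

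Glucose enters through facilitative transporters of the Slc2 family. Slc2a1, which encodes the widely expressed transporter GLUT1 and lies at chr4:119108711-119137983 (mm10, plus strand), was at 19.2, 22.8 and 10.05 TPM in replicates 1, 2 and 3. Slc2a3, which encodes the high-affinity transporter GLUT3, was at 4.47, 5.19 and 1.74 TPM. Slc2a1 was above Slc2a3 in all 3 libraries, with no overlap, and made up 82.6% ± 2.30 of their summed TPM (SD, n = 3). Over the summed counts its level per kilobase was 4.54 times that of Slc2a3 (exact 95% counting interval 3.71 to 5.58).

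Isoenzymes were compared in 15 such pairs as the log2 ratio of their counts per kilobase within each library. The ratio had the same sign in all 3 libraries for 14 pairs. With 3 libraries the two-sided exact sign-flip permutation test cannot give a p below 0.25, which these 14 pairs reached (Benjamini-Hochberg adjusted p = 0.268), so no pair could pass a usual threshold. For the pair of Pfkl and Pfkm, exact and adjusted p were 1. Counting intervals cover counting error only, not the spread between libraries.

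**Figure D2:**
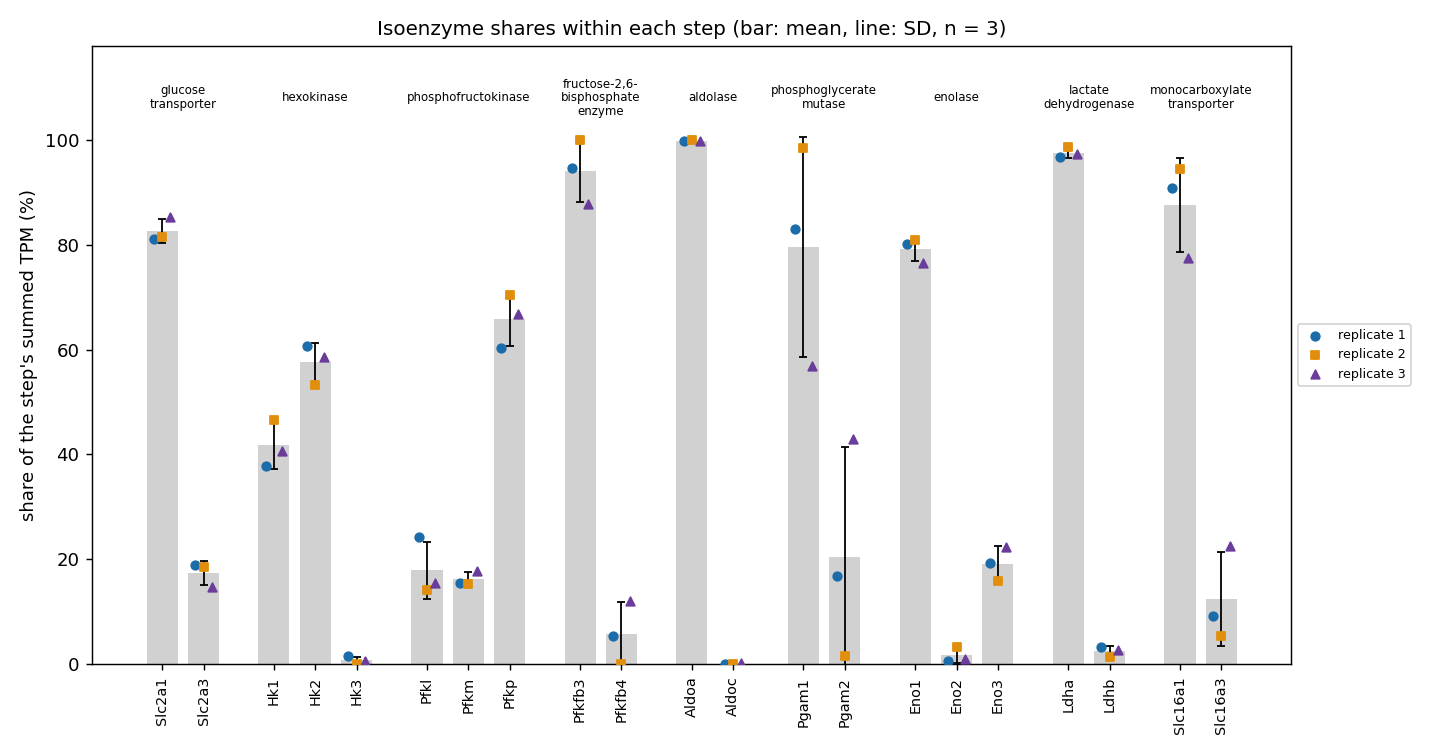
Share of each isoenzyme in the summed TPM of its step, in percent. Bars are means of 3 libraries, lines the SD and symbols the libraries. Ldha and Aldoa hold nearly all of their steps, Hk1 and Hk2 lie close together, and the shares of Pgam1 and Pgam2 spread most.

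Hexokinases trap glucose in the cell as glucose 6-phosphate. Hk2, the isoenzyme that is inducible in proliferating cells (chr6:82725025-82774454, minus strand), was at 30.2, 29.4 and 15.1 TPM. Hk1, the constitutive isoenzyme bound to mitochondria, was at 18.8, 25.7 and 10.5 TPM. Hk1 was below Hk2 within each library, by 0.68, 0.19 and 0.53 on the log2 scale, but their ranges over the libraries overlapped. Hk2 was 1.41 times Hk1 over the summed counts per kilobase (95% counting interval 1.28 to 1.56). On CPM, which scales for the library total but not for gene length, the mean log2 ratio of Hk1 to Hk2 was 0.048 instead of −0.47, so the order of this pair rests on the length. Hk3 had 6, 0 and 1 counts, and the 0 in replicate 2 allows up to 0.639 TPM.

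Glucose-6-phosphate isomerase, encoded by Gpi1, makes fructose 6-phosphate and was at 90.8, 68.9 and 49.9 TPM. Phosphofructokinase then commits the sugar to glycolysis, with liver (Pfkl), muscle (Pfkm) and platelet (Pfkp) forms. Pfkp, at chr13:6579768-6648777 on the minus strand, was at 114, 133 and 98.7 TPM. Pfkl was at 45.7, 26.5 and 22.7 TPM and Pfkm at 29.2, 28.9 and 26.2 TPM. Every Pfkp value was above every value of the other two, and Pfkp made up 65.9% ± 5.17 of the step. It was 3.37 times Pfkl (3.16 to 3.59) and 4.04 times Pfkm (3.66 to 4.47) over the summed counts per kilobase. Pfkl and Pfkm differed by 0.64, −0.12 and −0.20 on the log2 scale, a mean of 0.11 ± 0.47, which changed sign to −0.16 without replicate 1. On CPM the mean log2 ratio of Pfkl to Pfkm was 1.28. Their similar levels therefore rest on the gene lengths, 6675 exon bases for Pfkl and 2957 for Pfkm. Pfkm had the smallest spread in TPM of the 32 genes at a mean of 10 TPM or more, with an SD of 0.0852 on the log2(TPM + 1) scale. On DESeq2 size factors, which rescale each library to the typical gene, its SD was 0.277, above the median of 0.262 over these genes.

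Aldolase cleaves fructose bisphosphate into triose phosphates. Aldoa, at chr7:126795234-126809108 on the minus strand, was at 326, 253 and 176 TPM, while Aldoc, the form best known from brain, had 2, 0 and 1 counts. Aldoa was 1455 times Aldoc over the summed counts per kilobase (95% counting interval 498 to 7058), a wide interval because it rests on 3 counts of Aldoc. Tpi1, which interconverts the triose phosphates, was at 361, 240 and 176 TPM. Both genes were highest in replicate 1 and lowest in replicate 3.

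The lower steps of glycolysis yield NADH and ATP. Gapdh, the dehydrogenase that makes the NADH (chr6:125161715-125166467, minus strand), was at 488, 294 and 214 TPM. Pgk1, an ATP-yielding kinase on the X chromosome, was at 114, 137 and 40.9 TPM and was lowest in replicate 3. Near-identical copies could take or give reads here: 90.4% of the 50-base runs of the Gapdh transcript and 68.0% of those of Pgk1 occur in transcripts of other genes. For Gapdh these are 230 genes, 215 of them pseudogenes, and the headers name no option for reads aligning to several places. The 9 pseudogenes whose symbol adds -ps to that of Aldoa, Gapdh, Ldha, Pgam1 or Pgk1 held 1 count in all. The testis gene Pgk2 held 0. Copies under other names were not summed. They include Gm7336, with 90.4% of the Gapdh runs, and Pgk1-rs7, with 67.9% of the Pgk1 runs. Of the 50-base runs of Gpi1, Aldoa and Taldo1, 19.6%, 13.5% and 10.9% also occur in other genes. Whether copies took reads from any of these genes was not tested.

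At phosphoglycerate mutase, the next step, the split between the isoenzymes differed widely between libraries, while the summed level was 90.6, 63.4 and 60.9 TPM. Pgam1, the form of most tissues, was at 75.3, 62.5 and 34.7 TPM. Pseudogenes hold 41.5% of the 50-base runs of Pgam1, while other genes hold 0% of those of Pgam2. Pgam2, the muscle form (chr11:5801640-5803733, minus strand), was at 15.3, 0.933 and 26.2 TPM, from 29, 1 and 35 counts. Pgam1 held 83.1%, 98.5% and 57.0% of the step, and the log2 ratio of 2.92 had an SD of 2.88. It was 1.35 without replicate 2 and 4.18 without replicate 3. Pgam2 was thus low in replicate 2 alone and highest in replicate 3, against the order of most genes here. Of the 4 skeletal muscle markers, Acta1 and Myh4 had 0 counts, Ckm had 6, 0 and 15 and Tnnt3 3, 0 and 1, and the summed level was 0 to 3.64 TPM over the libraries. Exons of Ckm are overlapped on the other strand, and the part of the muscle markers in the Pgam2 values was not tested.

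Enolase makes phosphoenolpyruvate, and its 3 genes were clearly ordered. Eno1, the ubiquitous form (chr4:150236721-150248879, plus strand), was at 148, 124 and 72.8 TPM. Eno3, the muscle form, was at 35.5, 24.3 and 21.3 TPM, and Eno2, the neuronal form, at 1.23, 5.00 and 0.936 TPM. The 3 ranges did not overlap. Eno1 was 4.19 times Eno3 (3.69 to 4.78) and 57.2 times Eno2 (43.3 to 77.2) over the summed counts per kilobase. The mean log2 ratio of Eno1 to Eno2 was 5.94, and 6.60 without replicate 2, and that of Eno2 to Eno3 was −3.88, and −4.68 without replicate 2. Eno2 was highest in replicate 2, with 13, 30 and 7 counts. Of 4 neuron markers, Tubb3 and Snap25 had 0 counts, Rbfox3 had 0, 0 and 1 and the synaptic vesicle gene Syp 7, 29 and 5, with a summed level of 0.596 to 4.36 TPM. Exons of Syp are overlapped on the other strand, and the part of the neuron markers in the Eno2 values was not tested. The copy Eno1b had 11, 0 and 1 counts, but 70.5% of the 50-base runs of Eno1 occur in it.

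Pyruvate kinase closes the pathway with a second ATP-yielding step. Pkm, which encodes the muscle-type enzyme (chr9:59656368-59679375, plus strand), was at 429, 353 and 217 TPM, and all 3 values were above those of every phosphofructokinase and enolase gene. Its exons share 767 bases with Gm49759 on the same strand, and 30.5% of its 50-base runs occur in other genes. The splice forms of Pkm cannot be told apart in counts per gene.

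Lactate dehydrogenase reduces pyruvate to lactate, and the gene of its A subunit had the highest mean TPM of the set. TPM divides by all exon bases of a gene, 3310 for Ldha and 4133 for Gapdh. A single transcript of each, that with the longest coding sequence, has 1815 and 1273 bases. The rank of Ldha therefore holds for the gene lengths used, and ranks by transcript length were not computed. Ldha (chr7:46841475-46855627, plus strand) was at 719, 521 and 294 TPM, from 5365, 2201 and 1545 counts. Ldhb, whose subunit is typical of heart, was at 23.7, 6.99 and 8.01 TPM, from 84, 14 and 20 counts. Every Ldha value was above every Ldhb value, and Ldha made up 97.6% ± 0.96 of the step. Ldha was 36.6 times Ldhb over the summed counts per kilobase (95% counting interval 30.5 to 44.3), with log2 ratios of 4.92, 6.22 and 5.20 in replicates 1, 2 and 3. Over 999 aligned bases of their longest coding sequences, of 1086 and 1005 bases, Ldha and Ldhb were 71.3% identical. The Ldha start shown above is from the transcript closest to Ldhb in coding length, not from the longest. Of the 50-base runs, 16.6% of those of Ldha and 27.0% of those of Ldhb occur in pseudogenes.

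Lactate leaves through monocarboxylate transporters, for which Bsg encodes the chaperone basigin. Slc16a1, which encodes MCT1, was at 72.2, 66.6 and 34.2 TPM. Slc16a3, which encodes the export-type MCT4, was at 7.26, 3.83 and 9.93 TPM. Slc16a1 was 8.15 times Slc16a3 over the summed counts per kilobase (7.02 to 9.52), and their ranges did not overlap. The log2 ratio was 3.31, 4.12 and 1.79, lowest in replicate 3, where Slc16a3 was highest and Slc16a1 lowest, and its mean of 3.07 was 3.72 without replicate 3. Bsg was at 258, 190 and 123 TPM, above both transporters in each library.

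Pyruvate dehydrogenase turns pyruvate into acetyl-CoA. Pdha1 and Pdhb, which encode the subunits of its first enzyme, were at 74.4, 65.3 and 28.6 TPM and at 87.5, 67.0 and 40.2 TPM. Dlat, the acetyltransferase subunit, was lower, at 26.0, 27.1 and 11.3 TPM. Pdk1, a kinase that switches the complex off, was at 14.3, 11.6 and 5.09 TPM, below the 3 subunit genes in every library. Among the other Pdk kinases, Pdk3 was at 16.8, 10.1 and 8.10 TPM, its range overlapping that of Pdk1, Pdk2 had 8, 0 and 2 counts and Pdk4 had 0 counts throughout. For Pdhb, 30.3% of the 50-base runs occur in a pseudogene.

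All 7 pentose phosphate genes were detected. In the oxidative branch, which makes NADPH, G6pdx, the entry enzyme, was at 39.5, 29.3 and 23.1 TPM. Pgd, the second NADPH-yielding dehydrogenase, was at 32.2, 28.3 and 16.2 TPM. Pgls, the lactonase between them, was the lowest of the 7, at 13.2, 4.78 and 7.01 TPM, and its exons share 776 bases with Fam129c on the same strand. The non-oxidative branch rearranges sugar phosphates back to glycolysis. Its transketolase gene Tkt was at 132, 99.4 and 72.0 TPM and its transaldolase gene Taldo1 at 96.8, 68.6 and 42.9 TPM. Tkt was thus above G6pdx, Pgls, Pgd, Rpia and Rpe in every library. Rpia and Rpe, which interconvert the pentose phosphates, were at 20.8, 9.36 and 8.80 TPM and at 26.4, 23.7 and 10.7 TPM.

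The 3 regulators set the pace of the pathway or its transcription. Hif1a, which encodes the oxygen-regulated transcription factor HIF-1 alpha, was at 68.5, 64.0 and 27.7 TPM. Pfkfb3, whose enzyme makes the phosphofructokinase activator fructose 2,6-bisphosphate, was at 14.5, 9.23 and 6.57 TPM. Its relative Pfkfb4 had 9, 0 and 7 counts, under 1 TPM in every library. Pfkfb3 was 16.7 times Pfkfb4 over the summed counts per kilobase (10.2 to 29.5).

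Exons of 13 of the 39 genes (33.3%) overlap exons of an opposite-strand gene by 1 base or more, against 22.1% of coding genes. They are Slc2a1, Hk1, Hk3, Gpi1, Pfkm, Pfkp, Aldoa, Tpi1, Gapdh, Hif1a, Pdha1, G6pdx and Rpe. Their median level was 53.4 TPM, and that of the 26 others 25.2 TPM. The opposite gene was above the pathway gene in counts per kilobase in all 3 libraries for 5 of 12 pairs with 30 counts or more, against 55.2% of 3547 such pairs over coding genes. In 6 of all 13 pairs it was above in no library, and the share of coding genes for this was not computed. These 6 include Hk3, under the limit of 30 counts, with 6, 0 and 1 beside 4, 0 and 0 of Unc5a. They also include Gapdh, whose partner Iffo1 had 35, 4 and 35 counts beside 4547, 1550 and 1408. For Tpi1, also among the 6, the partner Spsb2 had 57, 39 and 48 beside 2241, 842 and 771.

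The exon segments that Aldoa and Pfkm share with their partners are shown as the 2 shortest of the 13 overlaps, each read on the strand of the pathway gene, 5′ to 3′, with no bases marked. The first is coding sequence of Aldoa at chr7:126797668-126797692 (mm10, minus strand), opposite an exon of Fam57b. The second is noncoding exon of Pfkm at chr15:98092648-98092665 (plus strand), opposite Senp1.
Aldoa: cgcattgtggctccgggcaagggca
Pfkm: caagaggcgatgagccag
Fam57b had 8799, 3896 and 7484 counts beside 2766, 1214 and 1053 of Aldoa, with these 25 bases of exon shared. The part of the overlap or of the strand setting in these counts was not tested. Per kilobase Fam57b was 3.04, 3.07 and 6.79 times Aldoa. Senp1 was 0.490, 0.322 and 0.281 times Pfkm.

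The other partners above their gene in every library lay opposite Slc2a1, Gpi1, Hif1a and Pdha1. Gm12868, an antisense gene that shares 105 exon bases with Slc2a1, was 31.0, 15.2 and 68.0 times its level per kilobase. Gm15283, antisense to Hif1a over 330 bases, was 14.8, 19.8 and 42.7 times Hif1a, from 3316, 2340 and 2730 counts. Gm26762, a noncoding gene opposite Gpi1 over 741 bases, was 7.96, 10.1 and 19.1 times Gpi1. Map3k15, a kinase gene whose end meets that of Pdha1 over 603 bases, was 5.61, 8.91 and 15.4 times Pdha1. All of these ratios were highest in replicate 3. G6pdx and Rpe had mixed pairs: Ikbkg was 0.836, 1.46 and 1.62 times G6pdx, and Kansl1l was 0.672, 2.08 and 1.97 times Rpe. Hk1os and Pitrm1 were below Hk1 and Pfkp in every library, at 0.0909, 0.255 and 0.463 times and at 0.862, 0.570 and 0.414 times.

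**Figure D3:**
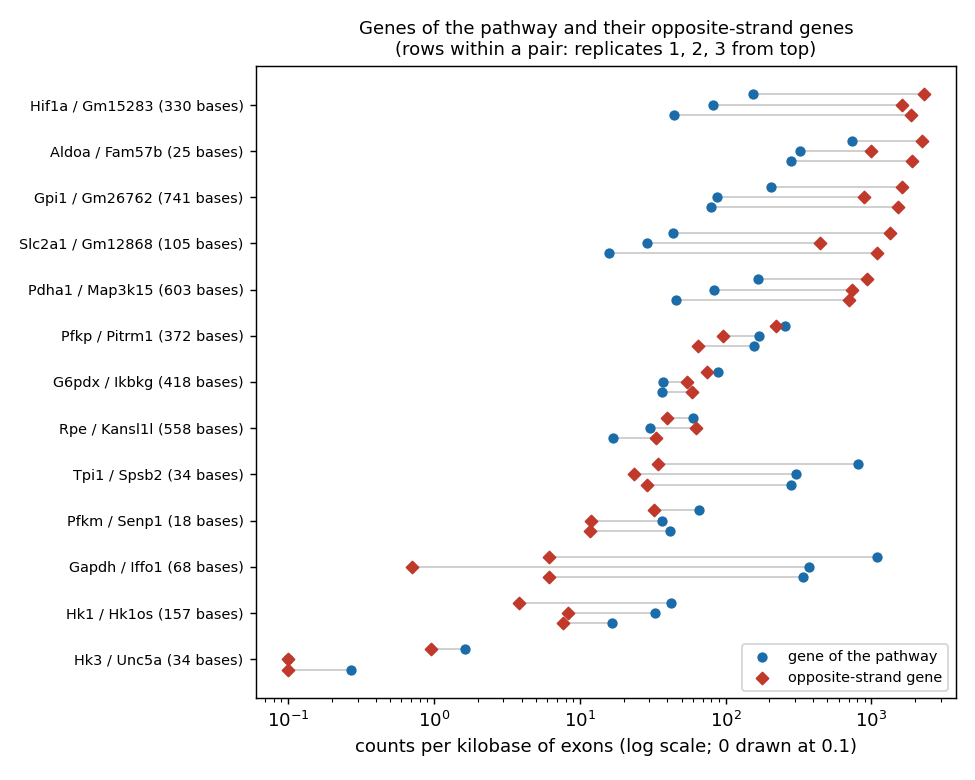
Counts per kilobase of exons, on a log scale, of each pathway gene (circles) and of its opposite-strand gene (diamonds), with a row for each of replicates 1, 2 and 3 and the shared exon bases in brackets. A count of 0 is drawn at 0.1. The diamonds lie right of the circles in every library for Hif1a, Aldoa, Gpi1, Slc2a1 and Pdha1, and far to the left for Gapdh and Tpi1.

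Of 12 pairs with a ratio in every library, 9 had their highest ratio in replicate 3, against 53.0% of 3238 such pairs over coding genes. Replicate 3 was the library with the largest share of counts in overlapped genes. The part of that share in the levels of the pathway genes was not tested. Clear genes, whose exons lie outside every gene body of the other strand, include 26 of the 39. With TPM computed over clear genes alone, Ldha was at 1928 ± 346 and Pkm at 1278 ± 88.9 (SD, n = 3). On that scale the 26 genes held 0.776%, 0.664% and 0.631% of TPM in replicates 1, 2 and 3. On the scale of all genes the 39 held 0.407%, 0.313% and 0.199%. These shares differ in both the genes summed and the total, so they cannot be set against each other.

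Most of the genes followed the same order of libraries. Of the 36 with a mean of 1 TPM or more, 27 were highest in replicate 1, as were 57.0% of 9932 coding genes of that level, and 32 were lowest in replicate 3, as were 67.5%. In TPM the median coding gene at a mean of 10 TPM or more lay 0.32 and 0.14 above its own mean in replicates 1 and 2 and at −0.46 in replicate 3, on the log2 scale. The 32 pathway genes of that level lay at medians of 0.44, 0.12 and −0.57, the same order as the coding genes. On DESeq2 size factors these medians were 0.15, −0.00 and −0.17, and 19 of 36 genes were lowest in replicate 3 instead of 32, against 41.6% of coding genes. On the same scale 22 of 36 were highest in replicate 1, against 35.4%.

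An SD above 0.5 of log2(TPM + 1) was found for 25 of the 32 genes, against 48.8% of 5314 coding genes of that level. On DESeq2 size factors 3 genes were above 0.5, against 23.7% of coding genes, namely Pgam2 with an SD of 2.30, Ldhb with 0.771 and Pgk1 with 0.609. In TPM without replicate 3 the count was 4 of 31, against 16.5% of coding genes, and without replicate 1 it was 15 of 28, against 45.5%. Pgam2 had 17.4, 1.19 and 48.4 scaled counts, Ldhb 50.4, 16.7 and 27.7, and Pgk1 345, 466 and 202, so these 3 genes were uneven on both scales. The median SD of the 32 genes on this scale was 0.262, and that of coding genes 0.324.

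**Figure D4:**
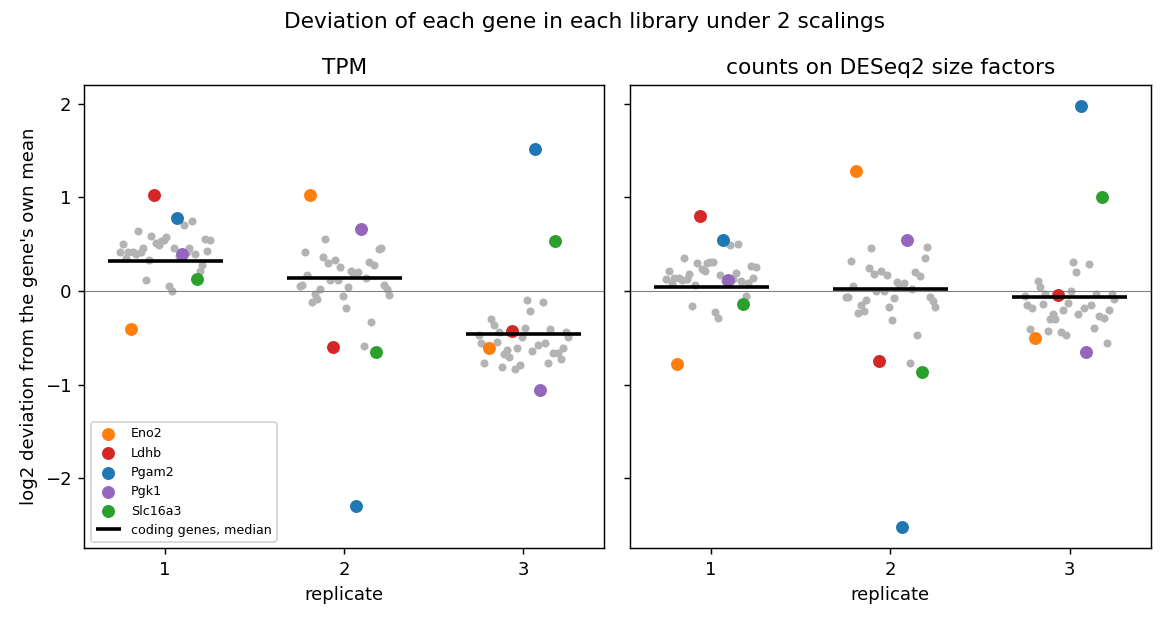
Deviation of each gene from its own mean over 3 libraries, on the log2 scale, in TPM (left) and in counts on DESeq2 size factors (right). Grey points are the genes with a mean of 1 TPM or more, coloured points the 5 named in the legend, and black bars the median of coding genes at a mean of 10 TPM or more. The bars lie at 0.32, 0.14 and −0.46 on the left and near 0 on the right, where Pgam2 still spreads widely.

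Other genes of the same pathways were taken from lists that included further isoenzymes, oxygen sensing and targets of HIF. Of these 58 genes, 33 were detected, 17 were under 1 TPM in every library and 8 were mixed, where 39.8% of coding genes were detected and 51.1% were under 1 TPM. Detected genes numbered 2 of 6 for glucose uptake, 9 of 19 for other isoenzymes and early steps, 7 of 11 for pyruvate entry, 4 of 8 for pentose phosphate, 6 of 8 for oxygen sensing and 5 of 6 for HIF targets. The highest by its mean was Gapdhs, the sperm form of Gapdh, at 44.6, 52.6 and 63.7 TPM, with exons overlapped by an opposite-strand gene. Dld, the third enzyme of pyruvate dehydrogenase, was at 57.2, 63.9 and 21.5 TPM, above Gapdhs in replicates 1 and 2. Prps1 and Prps2, which activate ribose phosphate for nucleotide synthesis, were at 58.5, 25.6 and 29.0 TPM and at 37.9, 37.6 and 10.1 TPM. These 3 genes had no such overlap. Egln1, a prolyl hydroxylase that marks HIF-1 alpha for destruction, was at 25.4, 45.2 and 12.1 TPM. Pgm1, Pfkfb2 and Mpc1 followed, with means of 22.7, 14.9 and 12.5 TPM and overlapped exons. The transporter gene Slc2a2, the insulin-regulated transporter gene Slc2a4 and the G6pdx copy G6pd2 had 0 counts.

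Genes of glycolysis are known targets of HIF-1 and MYC, whose recognition sequences contain ACGTG and CACGTG. The 250 bases before the RefSeq start (GRCm38.p6) are shown for 1 of 2 starts of Ldha, the gene of highest mean TPM. They are also shown for Pgk1, 1 of the 3 genes that were uneven between libraries on both scales. Both are read on the plus strand, 5′ to 3′, Ldha at chr7:46845554-46845803 and Pgk1 at chrX:106186850-106187099, and capitals mark ACGTG or its reverse complement CACGT, which overlap in CACGTG.
Ldha: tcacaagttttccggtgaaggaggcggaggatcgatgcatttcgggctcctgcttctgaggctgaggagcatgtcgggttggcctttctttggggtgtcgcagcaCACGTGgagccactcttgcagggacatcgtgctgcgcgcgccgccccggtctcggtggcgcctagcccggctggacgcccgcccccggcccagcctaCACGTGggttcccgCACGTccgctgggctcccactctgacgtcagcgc
Pgk1: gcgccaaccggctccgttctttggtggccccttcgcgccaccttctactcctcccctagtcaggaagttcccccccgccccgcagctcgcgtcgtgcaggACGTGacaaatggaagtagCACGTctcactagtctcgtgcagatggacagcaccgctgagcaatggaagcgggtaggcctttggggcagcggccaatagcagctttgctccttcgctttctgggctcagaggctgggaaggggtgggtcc
The Ldha window held such letters at 3 places, 2 of them as CACGTG, and the Pgk1 window at 2 places. The window of the other Ldha start, at chr7:46846832-46847081, held 0. So did the windows of Pgam2 and Ldhb, which were also uneven between libraries on both scales. Windows were found for 37 of the 39 genes, 51 windows in all. ACGTG, on either strand, was in 17 of the 51 (33.3%) and in 16.6% of all 32851 windows. CACGTG was in 5 of 51 (9.80%) and in 6.02% of all. Windows of 1 gene can overlap and hold the same match, as 2 of Aldoa do. Counted by gene, ACGTG was in 14 of 37 genes and in 18.5% of 27025 genes. CACGTG was in 5 of 37 and in 6.86%. The windows of these genes were richer in G and C, with a median of 60.4% against 52.4%, and the part of base composition in these shares was not tested.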

How the data were processed

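Per the file headers, the authors counted paired reads per gene with featureCounts v1.4.6-p4 over exons of GENCODE vM13 (mm10) with strand setting 1 and deposited whole-number counts beside each gene's length. The labels give total RNA as the molecule but link a library protocol titled for poly(A) RNA. For the aligner version and kit, the sources used here give no name. Symbols from GENCODE vM21 were found for 50376 of 50600 identifiers. TPM was computed from the deposited counts and lengths, and log values use a pseudocount of 1. Strand overlaps were computed from the deposited exon coordinates.

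The 39 genes, the lists of other genes and the markers were chosen with earlier results of these data known. Named genes are all 39, the opposite-strand gene of largest exon overlap, the 8 highest other pathway genes, every Pdk gene and near-identical copies. Other genes named (same-strand and neighbouring genes, single markers and the pathway genes at 0) were chosen after their values were seen. In ratios a count of 0 was set to 3 counts, the limit that a 0 allows. Ratios were tested with an exact sign-flip permutation test over 3 libraries, and intervals of summed ratios are exact at 95%. Alternatives were other pseudocounts, cutoffs, units and lengths, TMM (edgeR 4.0.16) and DESeq2 1.42.0 scaling, clear genes and each replicate left out. On simulated counts of 5314 genes, the SD cutoff of 0.5 called 100% of 200 genes raised 8-fold in 1 library and 8.00% of the others. A rise of that size lies far above the cutoff, so its recovery says little. The simulated libraries shared 1 mean profile, without the shift between the real ones, where 48.8% of coding genes were called. The 8.00% is therefore not the rate of false calls here. The software was R 4.3.3 and Python 3.11.15 with Biopython 1.88, SciPy 1.17.1, pandas 2.3.3, matplotlib 3.10.9 and numpy 2.4.6. The results of 2 listed genes are not reported here.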

Additional observations from a re-analysis of the deposited data

How the results depend on the processing

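No paired analysis was possible because there is 1 group. Of 90 alternative values for the 15 isoenzyme ratios, 88 kept their direction. The log2 ratio of Hk1 to Hk2 was 0.048 in CPM, and that of Pfkl to Pfkm was −0.16 to 0.26 with a replicate left out, lowest without replicate 1 and highest without replicate 3. In CPM the mean log2 ratio of Pfkl to Pfkm was 1.28. The count of genes with a large spread was 25 of 32 in TPM, 1 at an SD above 1 (2.62% of coding genes), 3 with TMM (21.8%), 3 with DESeq2 size factors (23.7%) and 5 of 23 over clear genes (26.6%). It was 4 of 31 without replicate 3 (16.5%), 15 of 28 without replicate 1 (45.5%) and 29 of 32 without replicate 2 (58.6%). Over clear genes 15 of 25 were highest in replicate 1 (38.4%). The count lowest in replicate 3, an alternative set chosen after seeing the data, was 20 with TMM (44.4%), 19 with DESeq2 size factors (41.6%) and 13 of 25 over clear genes (37.1%). At a cutoff of 5 TPM, 18 of 58 other pathway genes (31.0%) were detected, against 26.4% of coding genes. The median level was 5.70 in log2(CPM + 1) and 6.60 over clear genes, which are other scales. The number detected over all 39 genes was 31 at a cutoff of 5 TPM (26.4% of coding genes) and 36 at 0.5 TPM (42.4%). The other alternatives over all 39 lay between these, and 24 of 26 were detected over clear genes (37.4%). Low counts limit Hk3, Pfkfb4, Aldoc, Pgam2 and Eno2. With a replicate left out the exact test cannot go below 0.5.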

Other observations

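Of the 26 clear genes, 7 lie within 1000 bases of an opposite-strand gene without touching its body. They are Pfkl, Pfkfb4, Pgam2, Eno3, Slc16a3, Bsg and Pdhb. The share of all clear coding genes that do so was not computed. Pfkl lies nearest, 42 bases from 1810043G02Rik, which had 85, 20 and 77 counts. Pgam2 lies 678 bases from Dbnl, which had 545, 379 and 277 counts in replicates 1, 2 and 3. Slc16a3 lies 881 bases from Csnk1d, which had 432, 182 and 140 counts. Eno3 lies 709 bases from Gm12319, which had 32, 2 and 38 counts. Whether reads from neighbouring genes enter these levels was not tested.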
